A study of Mus musculus with 53 samples.

Results

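H3K27ac peaks of SOX2+ cells sorted from KOSR culture were compared with those of the same mouse embryonic stem cell (ESC) line grown in the naive media 2iLIF and NACL. The comparison uses 6 of the 53 samples of the series: SOX2+ A and SOX2+ B, 2iLIF B9 and B12, and NACL B9 and B12, 1 CUT&RUN library each. Every peak list was held to the 13514 peaks of the shortest list, taking those with the highest signal maximum, and peaks sharing at least 1 bp across libraries were merged into 22279 regions. Of these, 456 regions (2.05%) held a peak in both SOX2+ libraries and in no naive library (SOX2+-only), 1276 (5.73%) in all 4 naive libraries and in neither SOX2+ library (naive-only), and 4460 (20%) in all 6 libraries (shared). With every peak cut to the 500 bp around its maximum, so that widths were equal, the order of the exclusive classes turned, with 1304 SOX2+-only and 1016 naive-only regions. The other regions had mixed patterns. Among these, 211 held a peak in both SOX2+ and both NACL libraries and in no 2iLIF library, and 80 in both SOX2+ and both 2iLIF libraries and in no NACL library.

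All cells were SGGC, an E14JU ESC line of 129/Ola background in which endogenous SOX2 is fused to GFP and endogenous GATA6 to mCherry, with the resistance cassettes still in place. Cells had been kept in their medium for at least 4 passages. Both SOX2+ libraries are labelled as clone B12 (their titles carry A and B), whereas each naive medium has a library of clone B9 and a library of clone B12, so clone and culture are partly confounded. The series' design text instead names B9 and B12 as the replicates of every condition. The labels name a sorted fraction only for the KOSR samples, so the medium and the sorted fraction cannot be told apart. The libraries of each naive medium are of different clonal lines, but no label says whether SOX2+ A and B came from separate cultures. The p-values thus measure the spread between these libraries, which includes clones in the naive media and may be technical in SOX2+ cells. In such bulk libraries, fewer cells carrying the mark and less mark per cell cannot be told apart.

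Acetylation of histone H3 at lysine 27 marks active promoters and enhancers, and H3K4me1 marks enhancers whether active or not. Naive pluripotency is the state of the preimplantation epiblast, held by factors such as Nanog, Esrrb, Klf4 and Tfcp2l1, and formative pluripotency is the later state that precedes lineage choice and is associated with Otx2, Dnmt3a and Etv5. 2iLIF combines inhibitors of MEK and GSK3 with the cytokine LIF, NACL combines Activin, a GSK3 inhibitor and LIF, and KOSR medium contains KnockOut Serum Replacement.

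The DNA under the strongest signal of 9 regions is shown first, because the results below turn on regions like these: strong regions of each kind and regions nearest to genes of the lists used here. Windows were chosen after the values had been seen. Each window is 200 bp of GRCm38 (mm10; sequence from RefSeq GRCm38.p6, genes from GENCODE M21), plus strand, centred on the signal maximum of the best-ranked library. None overlapped an annotated exon. Capitals mark matches, on either strand, to the searched motifs. ATGCAAAT is the octamer bound by OCT4 (OCT below), and CATTGT is the core bound by SOX factors. TCAAGGTCA is bound by the nuclear receptor ESRRB, and CCACACCC by Krüppel-like factors (KLF). AGATAA is the string of the endoderm factors of the GATA family. ATCAAAG is bound by TCF factors at the end of Wnt signalling, and TAATCC by OTX2 and its relatives. TGANTCA is the AP-1 string, CAGCAGG is bound by ZIC factors, and TCACNCCAC is the sterol-response string (SRE), added after the data had been seen. The first 6 windows are SOX2+-only. The Sez6 window (chr11:77916874-77917073, intergenic, the strongest SOX2+-only region) holds OTX and ESRRB matches and was 58% repeat-masked. The Cuedc1 window (chr11:88170784-88170983, intron of Cuedc1) holds SOX matches. The Zfp42 window (chr8:43260729-43260928, intergenic) and the Sox2 window (chr3:34485459-34485658, intergenic) are named after their nearest genes, both of pluripotency. Their regions lie 43760 and 163680 bp from the start sites, and the Sox2 window holds an overlapping SOX and AP-1 match. The Lifr window (chr15:7167954-7168153, intron of Lifr, the LIF receptor gene) holds an ESRRB match outside repeats. The Sox4 window (chr13:28988842-28989041, intergenic, its region 34642 bp from the start site of this formative gene) holds 3 OCT matches. The last 3 windows are naive-only and intergenic: Gpcpd1 (chr2:132594558-132594757, SOX matches), Klf5 (chr14:99537441-99537640, GATA and ZIC matches) and Scd1 (chr19:44387847-44388046, named after the stearoyl-CoA desaturase gene). The Klf5 and Scd1 regions lie 234715 and 15623 bp from the start sites of these genes.
Sez6: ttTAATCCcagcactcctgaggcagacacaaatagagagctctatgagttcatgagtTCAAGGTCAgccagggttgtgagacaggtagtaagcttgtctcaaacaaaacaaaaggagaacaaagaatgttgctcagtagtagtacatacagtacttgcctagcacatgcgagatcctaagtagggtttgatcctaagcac
Cuedc1: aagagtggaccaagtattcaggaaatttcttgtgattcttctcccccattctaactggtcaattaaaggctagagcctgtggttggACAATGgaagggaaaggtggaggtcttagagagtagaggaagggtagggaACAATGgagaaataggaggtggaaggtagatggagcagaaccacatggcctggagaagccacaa
Zfp42: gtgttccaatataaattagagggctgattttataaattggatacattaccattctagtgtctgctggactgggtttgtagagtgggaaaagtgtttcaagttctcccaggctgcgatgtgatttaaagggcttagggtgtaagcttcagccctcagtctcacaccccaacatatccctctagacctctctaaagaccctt
Sox2: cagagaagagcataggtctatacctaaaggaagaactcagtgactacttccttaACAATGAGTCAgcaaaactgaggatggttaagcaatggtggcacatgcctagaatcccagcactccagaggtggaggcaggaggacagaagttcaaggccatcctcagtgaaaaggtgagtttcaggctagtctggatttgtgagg
Lifr: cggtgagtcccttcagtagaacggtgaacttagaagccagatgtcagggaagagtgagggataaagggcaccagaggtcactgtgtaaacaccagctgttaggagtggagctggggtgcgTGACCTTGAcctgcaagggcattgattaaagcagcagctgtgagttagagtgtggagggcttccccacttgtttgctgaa
Sox4: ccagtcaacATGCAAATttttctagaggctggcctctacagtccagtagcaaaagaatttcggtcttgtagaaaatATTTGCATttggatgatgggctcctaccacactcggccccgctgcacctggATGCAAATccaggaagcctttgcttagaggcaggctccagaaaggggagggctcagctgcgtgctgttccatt
Gpcpd1: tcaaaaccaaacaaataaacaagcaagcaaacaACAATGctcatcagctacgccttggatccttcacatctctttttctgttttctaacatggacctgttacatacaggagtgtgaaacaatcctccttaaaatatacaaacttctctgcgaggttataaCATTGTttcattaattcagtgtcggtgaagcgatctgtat
Klf5: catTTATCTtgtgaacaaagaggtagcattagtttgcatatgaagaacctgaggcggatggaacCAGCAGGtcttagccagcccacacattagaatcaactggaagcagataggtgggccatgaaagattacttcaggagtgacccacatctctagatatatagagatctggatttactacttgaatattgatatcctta
Scd1: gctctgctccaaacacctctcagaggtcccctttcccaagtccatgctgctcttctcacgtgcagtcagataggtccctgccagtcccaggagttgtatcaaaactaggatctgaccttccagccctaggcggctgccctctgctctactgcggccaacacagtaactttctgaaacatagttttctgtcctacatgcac

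The deposited lists differed widely in length. SOX2+ A held 13514 peaks and SOX2+ B 14722, against 232779 and 401853 in 2iLIF B9 and B12 and 224091 and 210904 in NACL B9 and B12. The lists were therefore compared by rank (1 is the highest maximum of a library) and not by signal. After holding, peaks had a median width of 1564 and 1578.5 bp in SOX2+ A and B and of 4854 to 5297 bp in the naive libraries, so kept peaks covered 26.2 and 26.7 Mb against 82.6 to 92.4 Mb. Read depth is unknown from peak lists. Widths and list lengths move with the groups, and their part in the results was not tested.

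Of the kept peaks of SOX2+ A, 65.8% overlapped a kept peak of SOX2+ B, and 64.9% the other way round. SOX2+ peaks overlapped 2iLIF peaks at 66.1 to 70.6% and NACL peaks at 72.4 to 75.5%, while naive peaks overlapped SOX2+ peaks at only 49.7 to 55.2% and each other at 69.1 to 77.2%. The agreement between the SOX2+ libraries was thus no higher than their overlap with the wider naive peaks. Peaks within 1 kb of a transcription start site made up 34.3 and 31.0% of SOX2+ A and B, 44.3 and 42.3% of 2iLIF B9 and B12, and 44.3 and 46.0% of NACL B9 and B12. Promoter peaks were thus a smaller share in SOX2+ cells (32.7% ± 2.35 against 44.2% ± 1.49, SD, n = 2 and 4), a difference of -11.6 percentage points with an exact two-sided permutation p of 0.133, the smallest that 15 splits allow. By the position of the maximum alone, which ignores peak width, the difference was -4.36 percentage points (exact permutation p = 0.267). The direction turned when lists were used at full length, where the promoter share was 22.1 percentage points higher in SOX2+ cells (exact permutation p = 0.133).

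SOX2+-only regions were mostly distal, while a larger share of the naive-only and shared regions, which were wider, lay at promoters. Of SOX2+-only regions 17.5% lay within 1 kb of a transcription start site, of naive-only regions 43.8% and of shared regions 65.5%, against 36.9% of all merged regions. Median distances to the nearest start site were 11016 bp, 4290 bp and 0 bp, and median widths 1992.5, 6713.5 and 11640.5 bp. By nearest protein-coding gene, SOX2+-only regions fell to 373 of 21911 genes (1.70%), naive-only regions to 1163 (5.31%) and shared regions to 3562 (16.3%).

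Absence from the kept peaks did not mean absence from the lists. In the whole deposited lists, 420, 428, 428 and 443 of the 456 SOX2+-only regions had a weaker peak in 2iLIF B9, 2iLIF B12, NACL B9 and NACL B12. All 4 naive lists had one at 394 regions, and 7 regions had none in any. Median best ranks were 8704.5 and 8297.5 in SOX2+ A and B, against 38605 and 34971 in 2iLIF B9 and B12 and 29960.5 and 27641 in NACL B9 and B12. The naive ranks had to lie beyond 13514 by the choice of these regions. Presence in the whole naive lists is itself near universal, since 97.6 to 99.1% of all kept SOX2+ peaks overlapped some peak of a naive list. The choice of SOX2+-only regions left out every region with a kept naive peak, so their shares (92.1 to 97.1%) had to be lower, and nothing is read from that. Naive-only regions showed the opposite picture: none of the 1276 had a peak in SOX2+ A and 35 (2.74%) had one in SOX2+ B. However, these lists end at or soon after the kept peaks, so they cannot show a weak peak. At the threshold, the first SOX2+-only regions had naive ranks of 13524 (Tbc1d5), 13529 (Fgr) and 13539 (Ext1), and regions kept out by 1 naive library had ranks of 13494 (Gpr146), 13482 (Kazn) and 13479 (Rhob).

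**Figure D1:**
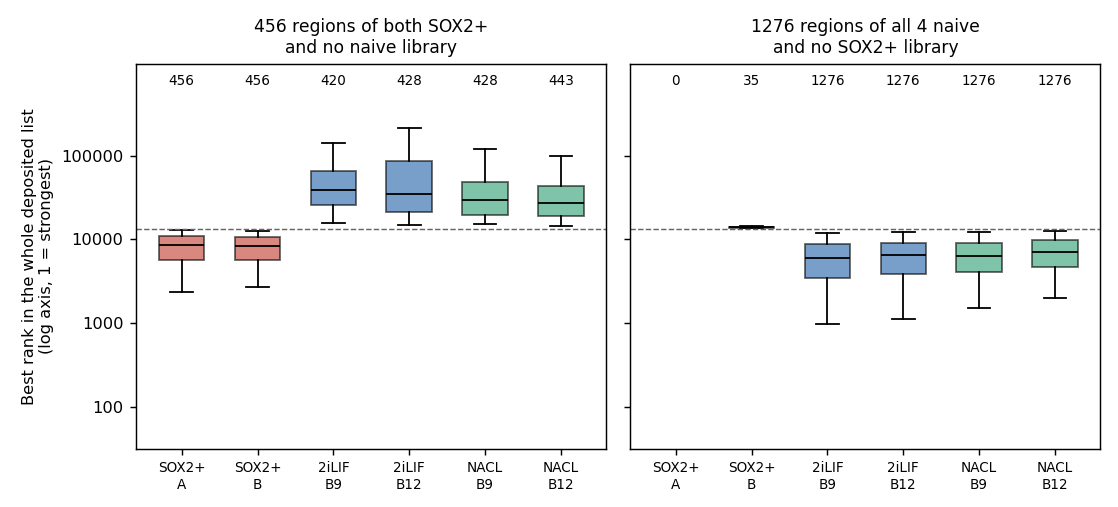
Best rank in the whole deposited list (log axis, 1 is the strongest) of the 456 SOX2+-only and the 1276 naive-only regions in each of the 6 libraries, with boxes for the median and quartiles, whiskers from 5 to 95% and the number of regions with a peak above each box; the dashed line is rank 13514. Most SOX2+-only regions reappear above the line, at weaker ranks, in the naive lists, while only 35 naive-only regions have a peak in SOX2+ B and none in SOX2+ A.

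The strongest SOX2+-only region lay 12102 bp from Sez6, a gene of neurons (chr11:77913739-77918698), with ranks 267 and 237 in SOX2+ A and B and full-list ranks of 45683 and 163827 in 2iLIF B9 and B12 and 36788 and 47377 in NACL B9 and B12. Next came regions at Cmip (1297 and 261), Rprd1a (510 and 729), Cuedc1 (777 and 2412) and Smad2, which transduces Nodal and Activin signals (1428 and 1502). The others of the top 10 were at Cald1, Nectin1, Baz1a, Etl4 and Olfr1339. At the Cuedc1 region, 2iLIF B9 and B12 ranked at 73205 and 242198, NACL B9 had no peak, and NACL B12 ranked at 15233. The genes with most SOX2+-only regions, 5 each, were Cd244a, Etl4, Jarid2, Med13l and Ppp1r9a. Jarid2 encodes a cofactor of Polycomb repressive complex 2.

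Among naive-only regions the strongest lay near Ptprd (ranks 57 and 210 in 2iLIF B9 and B12, 511 and 448 in NACL B9 and B12) and Gpcpd1 (77 and 144, 309 and 2602). The others were at 4931429L15Rik, Exoc6b, Gucy1a2, Sccpdh, Lrif1, Ttc28, Zfp119a and Btn2a2. SOX2+ A and SOX2+ B had no peak at any of these 10 regions. Robo1 had 6 naive-only regions, Cdk6 4, and 2410141K09Rik and 4930467E23Rik 3 each.

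For the 4460 shared regions the rank itself was tested. Each rank was expressed as log2 of 13514 over the rank, so that a difference of 1 is a doubling of rank strength, and SOX2+ was compared with the mean of 2iLIF and NACL by limma with Benjamini-Hochberg adjustment. SOX2+ cells ranked higher at 229 regions (5.13%) and lower at 162 (3.63%) at an adjusted p of 0.05. With clone as a replicate block the counts were 123 and 83. At an unadjusted p under 0.05 there were 574 and 606. The median difference of all shared regions was -0.11, against which the values below should be read. Because membership required a kept peak in every library, regions lost from a group cannot appear here. The groups did not overlap at 635 regions with SOX2+ higher (14.2%) and 787 with SOX2+ lower (17.6%).

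Against 2iLIF alone, 237 regions ranked higher (5.31%) and 192 lower (4.30%) in SOX2+ cells, and against NACL alone 71 (1.59%) and 47 (1.05%). The naive media differed from each other at 9 regions higher in 2iLIF (0.202%) and 2 higher in NACL (0.0448%). These comparisons share libraries. Over the 4460 regions, Spearman's rho between ranks was 0.710 for SOX2+ A and B, 0.711 for both 2iLIF and 0.742 for both NACL libraries, 0.384 to 0.416 between SOX2+ and 2iLIF, and 0.462 to 0.557 between SOX2+ and NACL. Counts of called regions depended on single libraries: without SOX2+ A there were 33 higher and 0 lower (481 and 430 unadjusted), without SOX2+ B 58 and 1, without NACL B9 88 and 55, and without 2iLIF B9 118 and 105. With clone B12 libraries alone in the naive group, limma called 3 regions higher and 0 lower (361 and 356 unadjusted). Without SOX2+ A or SOX2+ B the lone SOX2+ library is assumed to vary like the naive ones. With both 2iLIF libraries left out of the fit, limma called 34 higher and 20 lower, and 11 of the 34 called regions named below kept their call.

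The largest difference towards SOX2+ was at Steap3, which encodes a metalloreductase of iron uptake (chr1:120250533-120272248, over the start site). Its ranks were 101 and 64 in SOX2+ A and B, 9414 and 3080 in 2iLIF B9 and B12, and 9157 and 6703 in NACL B9 and B12, and the difference was 6.34 ± 0.72 (SE; limma adjusted p = 0.000343). Every naive library ranked this region far behind both SOX2+ libraries. Txnip, whose product binds thioredoxin and limits glucose uptake, had ranks of 121 and 153, 8307 and 10834, and 2482 and 4128 in the same order, a difference of 5.34 ± 0.67 (limma adjusted p = 0.000753). Sox2 itself had a region over its start site (chr3:34645787-34661577) with ranks 170 and 88 in SOX2+ A and B, 4638 and 4746 in 2iLIF B9 and B12, and 6703 and 1458 in NACL B9 and B12. It ranked higher by 4.97 ± 0.78 (limma adjusted p = 0.00306), although by total signal in place of the maximum the difference was 2.26 with an adjusted p of 0.148. The GFP fusion and its cassette lie at this locus in all 6 libraries. Steap3, Txnip and Sox2 stayed higher in SOX2+ cells when any 1 library was left out. With clone B12 alone in the naive group, Txnip kept its call (limma adjusted p = 0.0488), but Steap3 and Sox2 did not (0.0513 and 0.127).

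The remaining regions of the 10 with the largest difference towards SOX2+ were near Folr1, a folate receptor (6.16), Med13l, of the Mediator kinase module (6.03), Prdx6, a peroxiredoxin (5.46), Zfp281, a zinc finger factor acting in the exit from pluripotency (5.38), Zfp462 (5.19), Gdf3, a ligand of the TGF-beta family (5.02), and Gm11983 (4.94). Folr1 was among the strongest regions of both SOX2+ libraries, at rank 5 in each, and ranked at 1848 and 445 in 2iLIF and 320 and 62 in NACL. Gdf3 ranked at 24 and 6 against 674 and 624 in 2iLIF and 862 and 64 in NACL. The groups did not overlap at any of these. Gdf3 lost its call with the clone block (limma adjusted p = 0.0597), and without SOX2+ A or SOX2+ B (0.0834 and 0.193). Folr1 and Med13l lost theirs without SOX2+ A (0.0708 and 0.0622), Folr1 also without SOX2+ B (0.0799), and Zfp281 without SOX2+ A (0.0585).

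In the other direction, the largest difference was near Mcc, a tumour suppressor of the colon (chr18:44557138-44578905, 37622 bp from the start site). Ranks were 2059 and 1812 in SOX2+ A and B, 14 and 14 in 2iLIF B9 and B12, and 25 and 41 in NACL B9 and B12, a difference of -6.51 ± 1.05 (limma adjusted p = 0.00323). Sinhcaf, of the SIN3-HDAC corepressor complex, held the top rank of NACL B9 and ranks 11, 9 and 12 in the other naive libraries, against 483 and 382 in SOX2+ cells (-6.19 ± 1.36, limma adjusted p = 0.0126). Regions near Rtraf (-5.76), Dram2 (-5.02), Nup155 of the nuclear pore (-4.74), the splicing factor gene Rbfox2 (-4.69), Sde2 (-4.60), H2afz, which encodes the variant histone H2A.Z (-4.53), Ssbp1 of mitochondrial DNA maintenance (-4.35) and Nop14 of ribosome assembly (-4.34) followed. Nup155 ranked at 11321 and 12684 in SOX2+ A and B, against 81 and 617 in 2iLIF and 502 and 1611 in NACL. The groups did not overlap at any of the 10. None of these calls held both without SOX2+ A and without SOX2+ B (limma adjusted p of 0.0722 and 0.0707 at Mcc), and H2afz and Sde2 lost theirs with the clone block (0.0704 and 0.0811). By total signal in place of the maximum, the difference at Sinhcaf was -0.09 (limma adjusted p = 0.935), and Dram2 (-1.45, 0.0779), Ssbp1 (-1.18, 0.131) and Nop14 (-0.60, 0.278) were not called either.

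**Figure D2:**
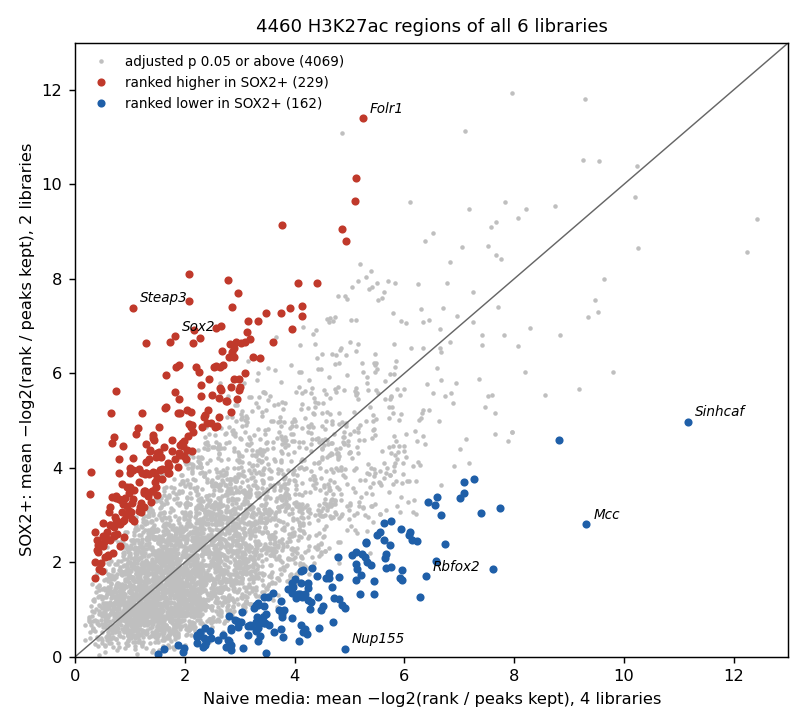
Mean rank strength of the 4460 shared regions (log2 of 13514 over the rank) in the 4 naive libraries (x axis) and the 2 SOX2+ libraries (y axis), with the 229 regions called higher in SOX2+ in red and the 162 called lower in blue. Steap3, Folr1 and Sox2 lie far above the diagonal and Mcc, Sinhcaf, Nup155 and Rbfox2 far below it.

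The 8 pluripotency markers used to check the cells (Pou5f1, Sox2, Nanog, Sall4, Zfp42, Esrrb, Klf4 and Tfcp2l1) were each the nearest gene of a shared region. That region lay over the start site for all of them except Klf4, whose only shared region was 48544 bp away. For gene lists, the best rank of any region nearest to a gene was used. A gene counts as ranked apart where both SOX2+ libraries were ahead of, or behind, all 4 naive libraries, a missing peak counting as last. Over all 21911 genes 4.03% ranked higher and 8.24% lower in SOX2+ cells by this measure, and over the 3562 genes with a shared region 13.7% and 19.3%. By total signal the shares of all genes were 5.29 and 7.76%, against 2iLIF alone 7.48 and 13.1%, and against NACL alone 5.61 and 14.4%. These counts are descriptions, with no test.

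Of 15 general pluripotency genes, 7 ranked higher in SOX2+ cells and 0 lower. Against 2iLIF alone 12 ranked higher, and against NACL alone 9, where 7.48 and 5.61% of all genes did. SOX2+-only regions lay near 3 of them (Sox2, Lin28a and Jarid2) and naive-only regions near none, where 1.70 and 5.31% of all genes had one. Of the 18 shared regions at these genes, limma called 7 higher and 0 lower (12 and 0 unadjusted), with a median difference of 1.42. Beside Sox2, the clearest was Sall4, a zinc finger factor of the pluripotency network, at 537 and 269 in SOX2+ A and B, 6790 and 8789 in 2iLIF, and 6688 and 2896 in NACL (3.94 ± 0.65, limma adjusted p = 0.00363). Jarid2 ranked at 255 and 145 against 3615 and 1383 in 2iLIF and 3419 and 1744 in NACL (3.60 ± 0.77, limma adjusted p = 0.0114). Its regions were also more numerous, with 19 and 22 kept in SOX2+ A and B against 7 to 12 in naive libraries. L1td1, an RNA-binding protein gene, was called (limma adjusted p = 0.0287), but its groups overlapped, with ranks 48 and 581 against 5909 and 3566 in 2iLIF and 1227 and 548 in NACL. Rif1 (2.80, limma adjusted p = 0.0277), Mycn (1.53, 0.0472) and a second Jarid2 region (1.32, 0.0482) completed the 7. The called Mycn region lay 146732 bp from the start site, and those at 11266 and 41101 bp were not called (limma adjusted p of 0.165 and 0.646). With the clone block L1td1, Rif1, Mycn and the second Jarid2 region were not called (limma adjusted p of 0.0785, 0.0628, 0.125 and 0.120), and by total signal L1td1 and Rif1 were not called (0.155 and 0.185).

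Sox2 kept 10 and 11 regions in SOX2+ A and B, against 5 and 6 in 2iLIF and 4 and 5 in NACL. A region 91922 bp from its start site (chr3:34742327-34767825) ranked at 535 and 110 in SOX2+ A and B, 621 and 1356 in 2iLIF, and 4960 and 1569 in NACL. It ranked ahead of every naive library in both SOX2+ libraries, but the difference of 2.72 missed the threshold (limma adjusted p = 0.0581). A SOX2+-only region 163680 bp away (chr3:34485114-34486725, whose window is printed above) ranked at 3315 and 8466, with full-list naive ranks of 14175 to 24147. The other genes ranked apart upwards were Dppa2 (227 and 135 against 234 to 4517) and Trim28 (4191 and 5011 against 5912 to 10075), though by total signal Trim28 ranked lower, and L1td1 and Lin28a joined those ranked higher. Pou5f1, which encodes OCT4, overlapped between the groups, at 1412 and 978 in SOX2+ A and B, 1544 and 834 in 2iLIF, and 3747 and 2910 in NACL.

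More naive pluripotency genes ranked higher than lower in SOX2+ cells. Of 20 genes, 15 had a shared region, 7 ranked higher in SOX2+ cells (Klf4, Esrrb, Zfp42, Nanog, Dppa5a, Tet2 and Pecam1) and 3 lower (Klf2, Tfcp2l1 and Dppa3). Of all genes 4.03% ranked higher and 8.24% lower, and of those with a shared region 13.7 and 19.3%. No trait of the list is therefore read from the 3 lower genes. Nanog, a homeobox factor of the naive network, ranked at 119 and 129 in SOX2+ A and B, 984 and 306 in 2iLIF B9 and B12, and 442 and 8631 in NACL B9 and B12. NACL B12 stood far from the other naive libraries there. Klf4 ranked at 246 and 451 against 977 and 1926 in 2iLIF and 747 and 846 in NACL. Tet2, a 5-methylcytosine dioxygenase gene, ranked at 250 and 310 against 1054 to 1217 in the naive libraries. For Esrrb the order was close, at 707 and 558 against 750 to 1335. By total signal, Esrrb, Nanog and Zfp42 no longer ranked apart, and Prdm14 and Tbx3 did. Nr5a2 then ranked lower.

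Tfcp2l1, a naive transcription factor, was among the strongest genes of every naive library, at 21 and 5 in 2iLIF and 52 and 54 in NACL, and ranked at 366 and 191 in SOX2+ A and B. Klf2 ranked at 4877 and 3729 in SOX2+ A and B against 976 to 2607 in the naive libraries. Dppa3, a maternal factor gene that protects DNA methylation in the zygote, had no kept peak in SOX2+ cells and ranked at 8744 and 13100 in 2iLIF and 5571 and 12448 in NACL. By total signal Dppa3 and Tfcp2l1 no longer ranked apart. Among the 25 shared regions of the naive list, limma called 2 higher and 0 lower (7 and 3 unadjusted, median difference 0.76). Both were distal to Tbx3, a T-box factor gene: one 77317 bp away (2.48, limma adjusted p = 0.0171) and one 53116 bp away (3.18, 0.0302). Neither was called with the clone block (limma adjusted p of 0.0628 and 0.140), and by total signal the first was not called (0.157). Another Tbx3 region, 28859 bp away (chr5:119709108-119714581), went the other way without overlap of the groups, at 1335 and 3597 in SOX2+ A and B, 397 and 926 in 2iLIF, and 475 and 124 in NACL, but missed the threshold (-2.51, limma adjusted p = 0.0788). SOX2+-only regions lay near Tbx3, Zfp42 and Fbxo15 and naive-only regions near Klf5, Dppa3 and Fgf4, so 3 genes of 20 had each kind. Of all genes, 1.70% had a SOX2+-only and 5.31% a naive-only region, so equal counts do not mean an even list. The Klf5 region (chr14:99533869-99539403) ranked at 2278 and 8441 in 2iLIF and 2073 and 6628 in NACL, with no peak in SOX2+ cells, while the best rank of Klf5 overlapped between groups.

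Of 20 formative genes, 2 ranked higher in SOX2+ cells and 1 lower. Against 2iLIF alone 7 ranked higher, with Dnmt3a, Etv4, Lin28b, Sox4 and Tcf15 added, and against NACL alone 3, with Tcf7l1 added, while Tcf15 then ranked lower. A kept peak lay near 11 of them in each SOX2+ library, 8 and 5 in 2iLIF B9 and B12, and 10 in each NACL library, and near 12 in any library. Fgf5, Pou3f1, Dnmt3b, Zic2, Zic5, Sox3, Sall2 and Fgf15 had none in any library. Otx2, a homeobox factor of the formative state, ranked at 4015 and 5558 in SOX2+ A and B and at 7529 and 10282 in 2iLIF B9 and NACL B9, and had no kept peak in 2iLIF B12 and NACL B12. By total signal Otx2 did not rank apart, while Dnmt3a and Lin28b ranked higher. Etv5, an ETS factor downstream of FGF signalling, ranked at 261 and 264 in SOX2+ A and B against 538 and 590 in 2iLIF and 1549 and 431 in NACL. Cdh2, which encodes N-cadherin, ranked lower, at 11227 and 9577 against 4026 to 7698. SOX2+-only regions lay near Dnmt3a, a de novo DNA methyltransferase gene, Tcf7l1 and Sox4. Dnmt3a ranked at 8192 and 7682 in SOX2+ A and B and 7928 in NACL B9, with no kept peak in the other naive libraries. Only Lef1 and Etv5 had shared regions, and limma called 0 of their 3 (0 also unadjusted, median difference 0.50).

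**Figure D3:**
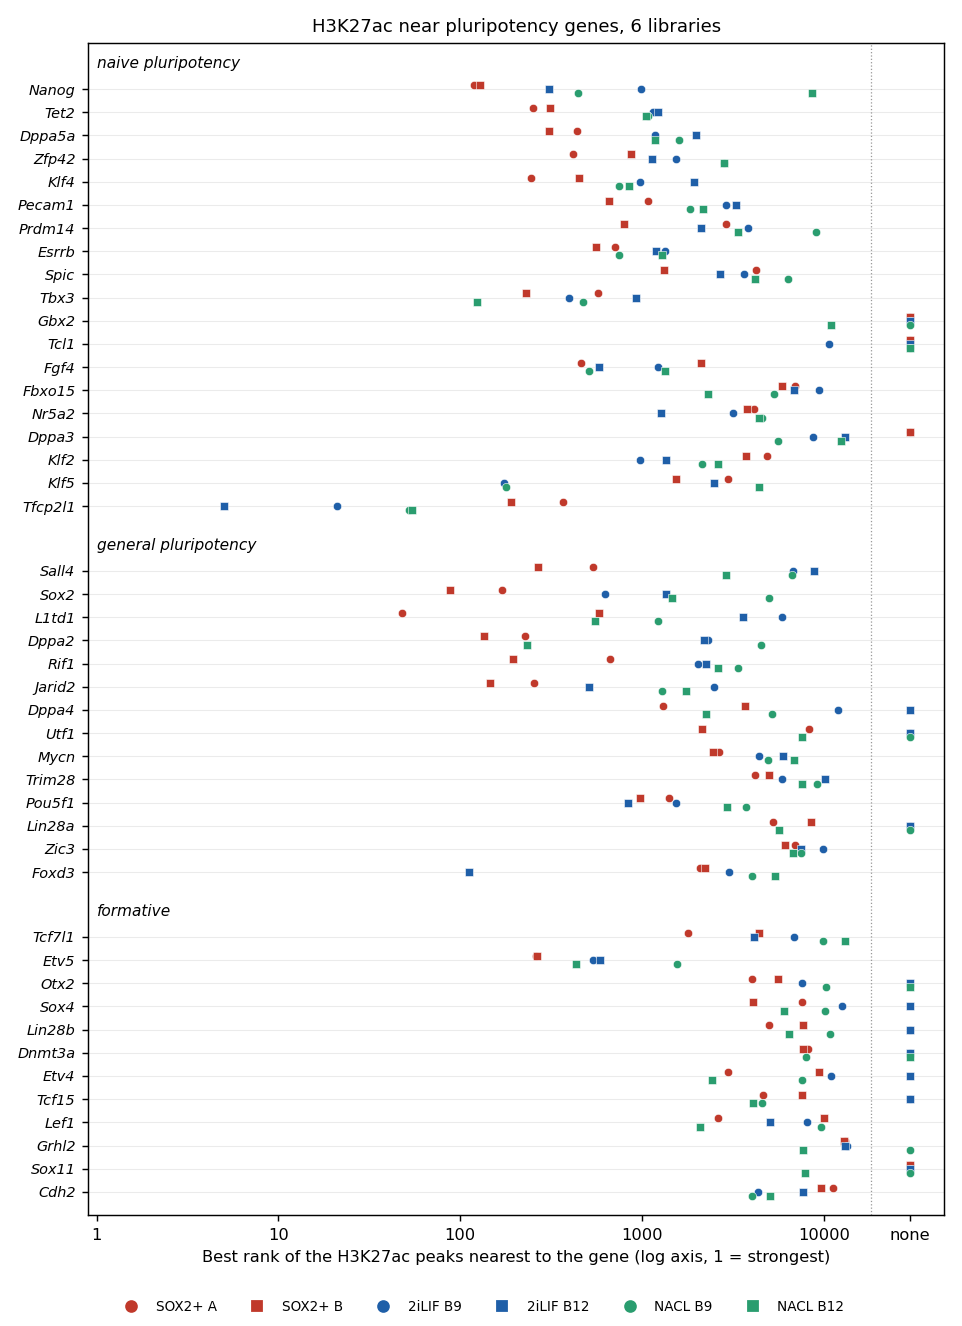
Best rank of each naive, general and formative pluripotency gene in the 6 libraries (log axis, 1 is the strongest, a library with no kept peak at the right edge, genes without any peak left out), SOX2+ in red, 2iLIF in blue and NACL in green, with circles for A or B9 and squares for B or B12. Sox2, Sall4 and Klf4 lie ahead of all naive libraries in both SOX2+ libraries, and Tfcp2l1 and Klf2 lie behind them.

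Genes of the LIF pathway ranked higher in SOX2+ cells at 4 of 9 genes and lower at 0. Lifr ranked at 77 and 113 in SOX2+ A and B against 362 and 1414 in 2iLIF and 767 and 218 in NACL, and had 3 SOX2+-only regions, of which the window of one is printed above. The Lifr region at chr15:7178804-7181697 ranked at 3469 and 3908, with full-list naive ranks of 24103 to 46055. Lif, the ligand gene, ranked at 2407 and 5215 with no kept peak in 3 naive libraries and 7346 in NACL B12. Socs3, the feedback inhibitor, ranked at 2028 and 3666, had no kept peak in 2iLIF, and ranked at 12697 and 9552 in NACL. Pim1, a kinase gene induced by STAT3, ranked at 1576 and 1290 against 2424 to 10343. Its shared region was called by limma (1.86, adjusted p = 0.0245, and 0.0497 with the clone block), as 1 of 4 for the list. By total signal 6 genes of the list ranked higher, where 5.29% of all genes did.

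Cholesterol and fatty acid synthesis genes ranked mostly the other way. Of 20 genes, 13 ranked lower in SOX2+ cells and 1, Elovl6, ranked higher, 7 (35%) had a naive-only region and none a SOX2+-only region. Of all genes 8.24% ranked lower and 4.03% higher, 5.31% had a naive-only region and 1.70% a SOX2+-only region. A kept peak lay near 9 and 6 of the genes in SOX2+ A and B, 17 and 15 in 2iLIF, and 16 in each NACL library. Srebf2, the transcription factor gene of cholesterol synthesis, ranked at 2708 and 6251 in SOX2+ A and B, 799 and 1245 in 2iLIF, and 325 and 513 in NACL. Its region was called lower (-2.69 ± 0.73, limma adjusted p = 0.0326), the only one of 7 shared regions of the list, but not with the clone block (0.102) nor without SOX2+ A or SOX2+ B (0.122 and 0.292). Idi1, an isomerase of the isoprenoid steps, ranked at 7769 and 4627 against 728 to 3214. Insig1, which retains the SREBP complex in the endoplasmic reticulum, ranked at 5694 in SOX2+ A with no kept peak in SOX2+ B, against 706 to 3677. Scd2, a stearoyl-CoA desaturase gene, had no kept peak in SOX2+ cells and ranked at 5926 and 3073 in 2iLIF and 3798 and 2917 in NACL.

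The other genes ranked lower, named after their values were seen, included Hmgcs1, Sqle, Srebf1, Scd1, Fasn, Acly, Cyp51 and Acaca. Fasn, the fatty acid synthase, had no kept peak in SOX2+ cells and ranked at 10212 and 9236 in 2iLIF and 5679 and 12711 in NACL. Ordered by total signal 13 genes of the list also ranked lower, of which 11 were the same (Fasn and Acaca were lost), while Elovl6 no longer ranked higher. Of all genes 7.76% then ranked lower. Against 2iLIF alone 14 genes of the list ranked lower and against NACL alone 14, where 13.1 and 14.4% of all genes did. Naive-only regions lay, among others, near Sqle, Srebf1, Scd1, Scd2, Fasn and Acly. Genes of fatty acid use and storage had 0 of 14 apart in either direction, 1, Lpl, lower by total signal, and 2 in each direction against NACL alone.

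Glycolysis genes ranked higher at 3 of 12 (Hk2, Aldoa and Gapdh) and lower at 0, but by total signal only Hk2 remained apart upwards and Pkm was apart downwards. Hk2, a hexokinase gene, ranked at 54 and 702 in SOX2+ A and B, 8757 and 4572 in 2iLIF, and 4760 and 1660 in NACL. Both of its shared regions were called higher (4.31 and 2.91, limma adjusted p of 0.0115 and 0.00828), but by total signal the first was not (1.65, limma adjusted p = 0.0514). Over all lists, limma called 15 shared regions, and only those at Sox2 and Sall4 were called whichever single library was left out. The other 13 lost their call without SOX2+ A, and 9 of them also without SOX2+ B. Housekeeping genes were apart upwards at 3 of 15 and downwards at 2 (1 and 4 by total signal, 5 and 3 against 2iLIF alone, 3 and 5 against NACL alone), and limma called 0 of their 10 shared regions in either direction (0 higher and 2 lower unadjusted, median difference 0.03).

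**Figure D4:**
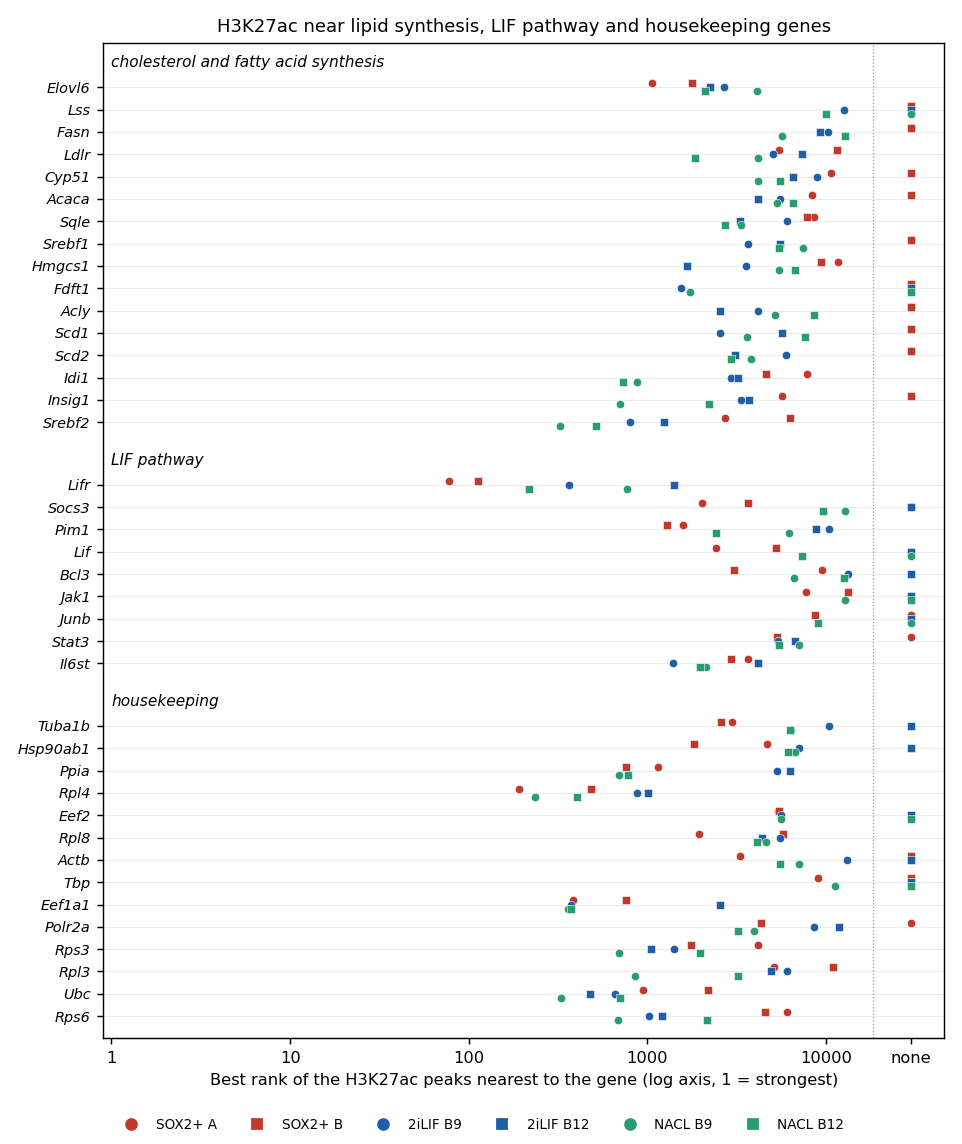
Best rank of the cholesterol and fatty acid synthesis, LIF pathway and housekeeping genes in the 6 libraries (log axis, 1 is the strongest, a library with no kept peak at the right edge, genes without any peak and a gene not reported here left out), SOX2+ in red, 2iLIF in blue and NACL in green, with circles for A or B9 and squares for B or B12. SOX2+ points lie behind all naive points at Srebf2, Idi1, Insig1 and Scd2 among the synthesis genes and ahead of them at 4 of 9 LIF pathway genes.

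Primitive endoderm genes, the markers of GATA6+ cells that a sort could miss, had a kept peak at 7 and 6 of 19 genes in SOX2+ A and B, 7 and 7 in 2iLIF, and 5 and 10 in NACL B9 and B12. Gata4, Sox17, Sox7, Pdgfra and Col4a1 had none in any library, and Foxa2 had one only in NACL B12. Gata6 ranked at 1304 and 2016 in SOX2+ A and B, ahead of 8017 and 7616 in 2iLIF and 7815 and 4671 in NACL. A different Gata6 region was naive-only (chr18:11079010-11087258, naive ranks of 8890 to 13356), as were 2 regions at Lamc1, while a SOX2+-only region lay at Lrp2. Lrp2 and Sparc also ranked higher, and Dab2, an endocytic adaptor gene, ranked lower. By total signal the list had 2 genes higher and 2 lower, with Sparc no longer apart and Lamc1 lower. A distal region of Dab2 ranked at 2294 and 2209 against 207 and 147 in 2iLIF and 145 and 364 in NACL (-3.49, limma adjusted p = 0.0204, and 0.0550 with the clone block). The share of GATA6+ cells in these libraries was not measured here, and its part in these ranks was not tested.

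The remaining lists had few genes apart. Of 15 ERK response genes, Phlda1 ranked higher and Fos lower, and 4 (Fos, Myc, Spred2 and Etv1) had a naive-only region, against 5.31% of all genes. By total signal Phlda1 was no longer apart, Dusp5 and Dusp6 ranked higher, and Myc, Spry1 and Spry2 ranked lower beside Fos. Of 13 Wnt targets, Tcf7 ranked higher and Ccnd1 lower, joined by Znrf3 by total signal. Of 10 Nodal pathway genes, Nodal and Skil ranked higher (Skil not by total signal) and Lefty2 lower. The ligand gene Nodal ranked at 492 and 1651 in SOX2+ A and B, 12892 and 4885 in 2iLIF, and 2878 and 3612 in NACL (2.49, limma adjusted p = 0.0308, 0.0893 with the clone block and 0.102 by total signal). None of 10 BMP and Id genes was apart. Of 11 trophoblast genes, Gata3 ranked higher and Tead4 lower, and of 15 genes of later lineages 2, Sox1 among them, ranked higher (1, Sox1, by total signal) and none lower. Against 2iLIF alone, 4 Wnt targets ranked lower and 1 higher, and 3 Nodal pathway genes lower and 2 higher. Of the primitive endoderm genes 3 then ranked lower and 4 higher, where 13.1% of all genes ranked lower and 7.48% higher. Against NACL alone 5 primitive endoderm genes ranked higher and 1 lower, where 5.61% of all genes ranked higher and 14.4% lower.

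H3K4me1 and SOX2 peaks of SOX2+, 2iLIF and NACL cells, which took no part in choosing the regions, were then read at the 3 kinds of region. The labels do not say whether these libraries share cultures with those of H3K27ac. H3K4me1 lists were held to 24700 peaks. At SOX2+-only regions, 66.2 and 68.0% held a H3K4me1 peak in SOX2+ A and B, 32.2 and 52.2% in 2iLIF B9 and B12, and 39.5 and 50.7% in NACL B9 and B12. Both SOX2+ libraries were thus above all naive libraries (67.1% ± 1.24 against 43.6% ± 9.48, SD, n = 2 and 4, exact permutation p = 0.133, adjusted 0.2), while all naive libraries still marked a substantial share. At naive-only regions the groups overlapped, with 51.1 and 50.4% in SOX2+ cells, 53.1 and 59.2% in 2iLIF, and 47.3 and 46.9% in NACL (difference -0.862 percentage points, exact permutation p = 1). At shared regions SOX2+ cells had 74.3 and 75.3% against 62.5 to 69.2% (difference 7.77 percentage points, exact permutation p = 0.133, adjusted 0.2). The smallest p that this design allows is 0.133. With all peaks in place of equal numbers the direction turned at the 7 remaining SOX2+-only regions (-17.9 percentage points, exact permutation p = 0.4) and at naive-only regions (11.2 points, 0.4). Over all merged regions both SOX2+ libraries lay above 3 naive libraries (43.8 to 44.9%) and below 2iLIF B12 alone (51.5%).

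SOX2 lists were held to 8203 peaks and comprised 3 SOX2+ libraries, A, A1 and B. The labels do not say whether A and A1 share a culture. At SOX2+-only regions, 14.3, 15.1 and 12.7% held a SOX2 peak in these libraries, against 7.02 and 6.36% in 2iLIF and 8.33 and 8.99% in NACL. At naive-only regions the order was the reverse, with 20.7, 20.5 and 19.4% against 30.6 and 30.9% in 2iLIF and 29.5 and 26.1% in NACL. Over all merged regions the shares were 18.75, 18.56 and 17.99% in SOX2+ A, A1 and B and 18.6 to 19.8% in the naive libraries, so the SOX2+-only regions lay below this share in every library. At equal peak numbers the groups did not overlap at either kind of region: the difference was 6.36 percentage points at SOX2+-only and -9.08 points at naive-only regions (20.2% ± 0.667 against 29.3% ± 2.19, SD, n = 3 and 4). At shared regions the values were 33.8, 35.3 and 32.8% against 30.4 to 32.6%. The exact permutation p was 0.0571 for each kind of region, the smallest that 35 splits allow, so none could pass 0.05 in this design. With all peaks in place of equal numbers, the difference at naive-only regions shrank to -2.42 points (exact permutation p = 0.514), and that at the 7 remaining SOX2+-only regions was 4.76 points (exact permutation p = 0.914). In the SOX2+ libraries themselves, the mean share was 14.04% at SOX2+-only, 20.19% at naive-only and 33.96% at shared regions.

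**Figure D5:**
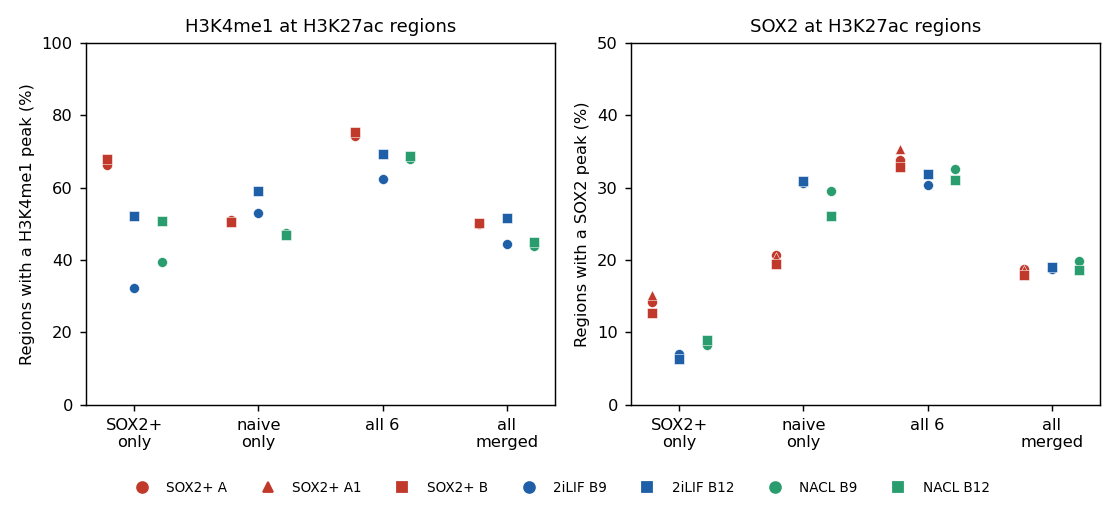
Percent of SOX2+-only, naive-only, shared and all merged regions with a H3K4me1 peak (left) or a SOX2 peak (right), 1 point per library. SOX2 points of the 3 SOX2+ libraries lie above all naive points at SOX2+-only regions (12.7 to 15.1% against 6.36 to 8.99%) and below them at naive-only regions (19.4 to 20.7% against 26.1 to 30.9%).

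Short motifs were counted in the 500 bp around the strongest maximum of each region, on both strands. The ESRRB string TCAAGGTCA was in 40 of 456 SOX2+-only windows (8.77%), against 1.41% of naive-only, 2.56% of shared and 2.87% of all merged windows. Most of these matches lay in repeat-masked bases: outside them, 7 SOX2+-only windows (1.54%) held the string, against 0.627%, 0.762% and 1.05%. The OTX string TAATCC was in 24.1% of SOX2+-only and 19.4% of all windows, and outside repeats in 12.5 and 12.3%. TCF (ATCAAAG) was in 6.14% of SOX2+-only, 9.17% of naive-only, 6.35% of shared and 8.44% of all windows. The OCT, SOX, KLF, GATA, AP-1 and ZIC strings and the sterol-response string SRE were found at shares close to one another in the SOX2+-only, naive-only and all merged windows, such as 3.51, 4.39 and 3.55% for OCT and 22.4, 23.3 and 24.6% for SOX. Windows were alike in GC content (47.3% in SOX2+-only, 46.6% in naive-only and 47.0% in all) and in repeat-masked bases (22.7, 21.8 and 21.3%). These are counts of letters, with no test, and a match does not show binding.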

How the data were processed

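CUT&RUN profiled H3K27ac, H3K4me1 and SOX2 in SGGC mouse ESCs. The submitters' processing notes name cutadapt 1.18, Bowtie2 2.3.4.1, SAMtools 1.9, Picard 2.9.1, bedtools 2.27.1, deepTools 3.2.0 and SEACR, with mm10. Peaks were called by the authors per library against an IgG control. The deposited lists give, per peak, the total signal and the maximum signal (coverage). The deposited lists of histone marks are named as relaxed calls, whereas the study's methods state the opposite assignment of modes. Of 53 samples, 35 had a list and 23 lists were used. The labels of 2 samples conflict, and these entered no comparison.

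Lists were restricted to chromosomes 1 to 19, X and Y, ordered by maximum signal (ties by total signal), and held to 13514 (H3K27ac), 24700 (H3K4me1) or 8203 (SOX2) peaks. Peaks sharing 1 bp were merged. The nearest gene was the protein-coding GENCODE M21 gene with the nearest start site. A region is a promoter region within 1 kb of a start site. Ranks at shared regions were tested with limma 3.58.1 in R 4.3.3, and shares over libraries with exact two-sided permutation tests, with a threshold of 0.05. The limma step was tested on simulated ranks. Other steps used Python 3.11.15, numpy 2.4.6, pandas 2.3.3, scipy 1.17.1, statsmodels 0.14.6 and matplotlib 3.10.9.

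The regions and the 15 gene lists (218 genes) were chosen with earlier results of these data known. Genes were named by rule: all genes of the naive, general and formative lists with a peak, up to 4 genes of each other list with the largest difference without overlap, the 10 best-ranked regions of each exclusive kind, the 10 largest called differences in each direction, and the 5 genes with most regions of each kind. Clone numbers pair 2iLIF with NACL libraries as the same clonal line (the B9 minus B12 rank differences correlated at 0.15 over regions), while both SOX2+ libraries are clone B12. Alternatives were another order of peaks, other numbers of peaks, other overlaps, single naive media, 1 clone, the clone block and leaving out each library. A few members of the lists and regions are not reported here by name.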

Additional observations from a re-analysis of the deposited data

Results flagged for a closer look

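In 65 comparisons of a value over the 4 naive libraries, a single library stood apart from the other 3 by Dixon's test at 4 values, and chance alone gives about 1 in 20. The list of 2iLIF B12 held 401853 peaks, against 210904 to 232779 in the others. H3K4me1 of 2iLIF B12 covered 51.5% of all merged regions, against 43.8 to 44.9%. The best rank at Nanog was 8631 in NACL B12, against 306 to 984. The best rank at Etv5 was 1549 in NACL B9, against 431 to 590.

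At 11 shared regions the difference of SOX2+ cells from 2iLIF was not the same as that from NACL, tested as the difference between 2iLIF and NACL (log2 of the rank, limma with Benjamini-Hochberg adjustment). 2iLIF ranked higher than NACL by 7.61 near Mgat5 (adjusted p = 0.00352), 5.35 near Dennd1a (0.00942), 5.14 near Omg (0.00942), 4.86 near Exoc4 (0.0221), 4.72 near Sash1 (0.0366), 4.69 near Lrig2 (0.00942), 3.94 near Gm47996 (0.0366), 3.45 near Hes1, a Notch target (0.0221), and 3.15 near Speer4b (0.0227). 2iLIF ranked lower than NACL near Brwd1 (-6.99, adjusted p = 0.00942) and Sec24d (-5.68, adjusted p = 0.0221). At Brwd1 the ranks were 66 and 34 in SOX2+ A and B, 4174 and 3151 in 2iLIF, and 39 and 21 in NACL, so SOX2+ cells lay beside NACL there. At Mgat5 they were 4617 and 967 in SOX2+ A and B, 16 and 61 in 2iLIF, and 4980 and 7474 in NACL.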

How the results depend on the processing

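Several alternatives (ties in another order, promoters by the maximum alone, and the settings of the genes ranked apart) were chosen after seeing the data. Using all peaks instead of equal numbers gave 7 SOX2+-only and 57490 naive-only regions, a promoter share 22.1 percentage points higher in SOX2+ cells, H3K4me1 differences of -17.9 at SOX2+-only and 11.2 at naive-only regions, SOX2 differences of 4.76 and -2.42 (exact permutation p of 0.914 and 0.514), and 13 regions called higher and 6136 lower by limma. The difference then took the other sign at Sall4 (-0.25), Rif1 (-1.39), L1td1 (-0.65), Mycn (-2.67), Jarid2 (-0.59 and -2.88), Tbx3 (-1.71 and -1.01), Hk2 (-1.29), Nodal (-1.70) and Pim1 (-2.40). These lists differ in length by construction, so a rank then means a share of unequal lists. Region numbers moved as follows. SOX2+-only regions numbered 1304 with 500 bp around each maximum (naive-only 1016, so the order of both turned), 1104 against 2iLIF alone and 708 against NACL alone. Naive-only regions numbered 529 with the strongest 50% of peaks, 2029 with clone B12 alone, 2876 with 2iLIF alone, 2519 with NACL alone and 717 among distal regions. Shared regions numbered 2353, 2205 and 1540 with the strongest 50%, 500 bp windows and distal regions. limma called 442 higher and 398 lower by total signal, 115 and 94 with the strongest 50%, 34 and 20 with both 2iLIF libraries left out of the fit, 111 and 58 with the naive libraries as 1 group, 3 and 0 with clone B12 alone, 123 and 83 with clone as a replicate block, and 198 and 197 with normal scores of the ranks. H3K4me1 at naive-only regions differed by 0.851 with the strongest 50%, and by 1.66 without 2iLIF B12. Leaving out 1 library gave 508 to 1941 SOX2+-only (1941 without SOX2+ A, 1816 without SOX2+ B), 1522 to 1926 naive-only and 4626 to 5111 shared regions, 33 to 192 regions called higher and 0 to 143 lower, promoter differences of -13.2 to -9.91, H3K4me1 differences of 19.7 to 26.3 (SOX2+-only), -2.44 to 1.66 (naive-only) and 6.24 to 8.47 (shared), and SOX2 differences of 5.81 to 7.02, -10.1 to -8.54 and 1.82 to 3.07. The cause of these changes was not tested. Of the 34 named regions, 22 kept their call with the clone block, 7 without SOX2+ A, 14 without SOX2+ B, 11 with NACL as the only naive medium and 1, Txnip, with clone B12 alone. By total signal, 22 of the 32 that were then shared did. No promoter share can be had among distal regions. Peak lists limit what can be said of weak signal, most of all in SOX2+ cells.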

Other observations

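Other H3K27ac lists of the series, also held to 13514 peaks, were read at the same regions. The library of DP cells (SOX2+ and GATA6+, sorted from KOSR culture, A) had a peak at 33.8% of SOX2+-only, 31.2% of naive-only and 86.5% of shared regions. In nEnd, the endoderm culture, B9 and B12 had one at 17.1 and 24.3% of SOX2+-only, 37.1 and 46.9% of naive-only and 63.2 and 70.6% of shared regions. A further KOSR library, whose title names DP and whose source names SOX2+ cells, had one at 49.8, 22.6 and 90.8%. With 1 DP library and no group for the last one, these are values without a test.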
